A study of Mus musculus with 19 samples.

Results

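The question here was whether oil palm phenolics (OPP), a phenolic-rich water extract of the oil palm fruit, changed gene expression differently in the spleen and in the liver of the same kind of mouse. Male BALB/c mice, 12 weeks old by the labels, ate an atherogenic diet, rich in fat and cholesterol, for 6 weeks. The AD + OPP mice drank OPP at 1500 ppm of gallic acid equivalent and the AD + DW mice drank distilled water, so the diet was shared by all groups. Of the 19 arrays of the series, 13 entered the comparison: 3 spleens of AD + OPP, 3 spleens of AD + DW, 3 livers of AD + OPP and 4 livers of AD + DW. No mouse on a normal diet was analysed here, several mice shared a cage in this study, and the effect of a cage cannot be told apart from that of the drink.

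The measure reported for each probe is the OPP effect in spleen (AD + OPP minus AD + DW) minus the OPP effect in liver, on the log2 scale. A positive value means that the spleen effect lay above the liver effect. A probe was included when Illumina's detection p was under 0.01 on every array of at least 1 group in the spleen and of at least 1 group in the liver, which left 4639 of the 24048 probes, with 3831 named genes. At the edge of this rule, 57 probes stood just inside at a deciding detection p of 0.00965 and 37 just outside at 0.0109. The median signals of these probes in their brightest group were 198 and 209.

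The organs do different work. The liver makes most plasma proteins, stores and releases glucose, and folds its secreted proteins in the endoplasmic reticulum (ER), where an overload of unfolded protein switches on chaperone genes, the unfolded protein response. The spleen is a filter of blood held by B and T lymphocytes, macrophages and, in inflammation, many neutrophils, white cells that live largely on glycolysis. Because whole organs were used, fewer cells of a type and less RNA per cell cannot be told apart.

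The organ labels were borne out by their markers. Of 8 hepatocyte markers, 7 were detected on every liver array and 6 on no spleen array, while B-cell markers were detected on no liver array. In spleen, all 8 neutrophil markers were higher in AD + OPP, with mean log2 signals of 12.45 to 12.96 in AD + OPP and 10.53 to 12.02 in AD + DW. The B-cell markers were lower for 5 of 6, at 6.17 to 6.82 in AD + OPP and 7.17 to 7.63 in AD + DW, with Pax5 and Cr2 not detected on any spleen array. T and NK cell markers were lower for 6 of 6, at 6.07 to 7.25 in AD + OPP and 7.40 to 8.11 in AD + DW. Of these 6, 3 were detected on every spleen array and Cd4 was not detected on any. In liver, neutrophil markers ranged more widely within each group, from 5.10 to 10.2 in AD + OPP and from 4.98 to 10.5 in AD + DW.

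Markers of pancreatic acinar cells, which make digestive enzymes and belong to neither organ, stood high on 4 of the 13 arrays. Their mean log2 signal was 13.9 on spleen AD + OPP replicate 1, 14.4 and 15.9 on spleen AD + DW replicates 1 and 3, and 11.2 on liver AD + DW replicate 3. On the other spleens it was 4.74 to 5.14 and on the other livers 4.51 to 5.33. Without these 4 arrays the spleen comparison has 2 arrays of AD + OPP and 1 of AD + DW, and its values are given below as descriptions. Spleen AD + DW replicate 2, the only AD + DW spleen low in acinar markers, was also the AD + DW spleen highest in neutrophil markers. The part of these cell markers in the differences below was not tested.

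**Figure D1:**
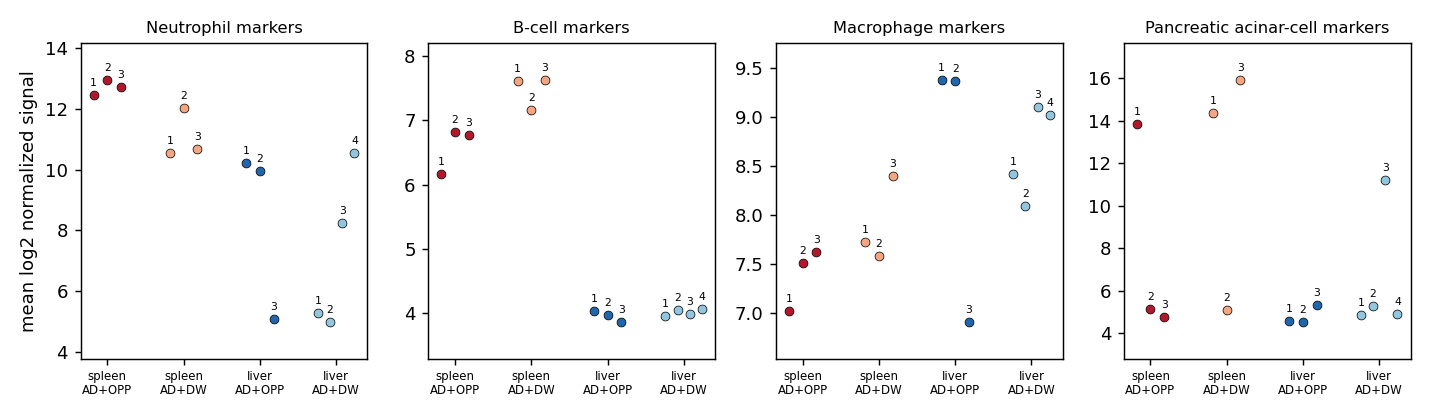
Mean log2 normalized signal of 4 marker lists on each array, by group, with the replicate number beside each point. Neutrophil markers do not overlap between the AD + OPP spleens (12.45 to 12.96) and the AD + DW spleens (10.53 to 12.02), and acinar markers are high on 3 spleens and 1 liver.

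The OPP effects in spleen and liver were only loosely related. Across the 4639 probes their Pearson correlation was 0.17 and 53.2% of probes had the same sign in both organs, which describes these probes and is no test. The spleen effects were spread more widely, with a standard deviation of 0.42 against 0.29 in liver. In the fit over both organs, OPP changed 94 probes in spleen (2.03%), of which 67 were higher (1.44%) and 27 lower (0.582%), and 0 in liver (limma, Benjamini-Hochberg adjusted p under 0.05). The smallest adjusted p in liver was 0.192, and 394 liver probes had an unadjusted p under 0.05. The spleen count rests on the spread shared with the liver arrays: with the spleen fitted alone, limma called 0 probes, and an unpaired t-test within spleen passed 548 before and 1 after adjustment. The study tested its arrays with Illumina's custom error model, which was not run here.

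The difference between the organs itself passed the test for 10 probes, 0.216% of those tested. All 10 lay higher in spleen than in liver, with differences of 1.20 to 2.33 on the log2 scale, and 0 lay lower. At an unadjusted p under 0.05 there were 222 probes with a higher (4.79%) and 264 with a lower spleen effect (5.69%), 486 in all (10.5%). Of these 486, 301 had an effect at that level in spleen only, 94 in liver only, 19 in opposite directions in the organs, 1 in the same direction and 71 in neither organ alone. Over all probes, 6.45% were higher and 9.46% lower in spleen at that level, and 4.2% were higher and 4.29% lower in liver. The AD + OPP and AD + DW arrays did not overlap in spleen for 21% of probes and in liver for 8.84%. The median difference of all probes was −0.08.

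**Figure D2:**
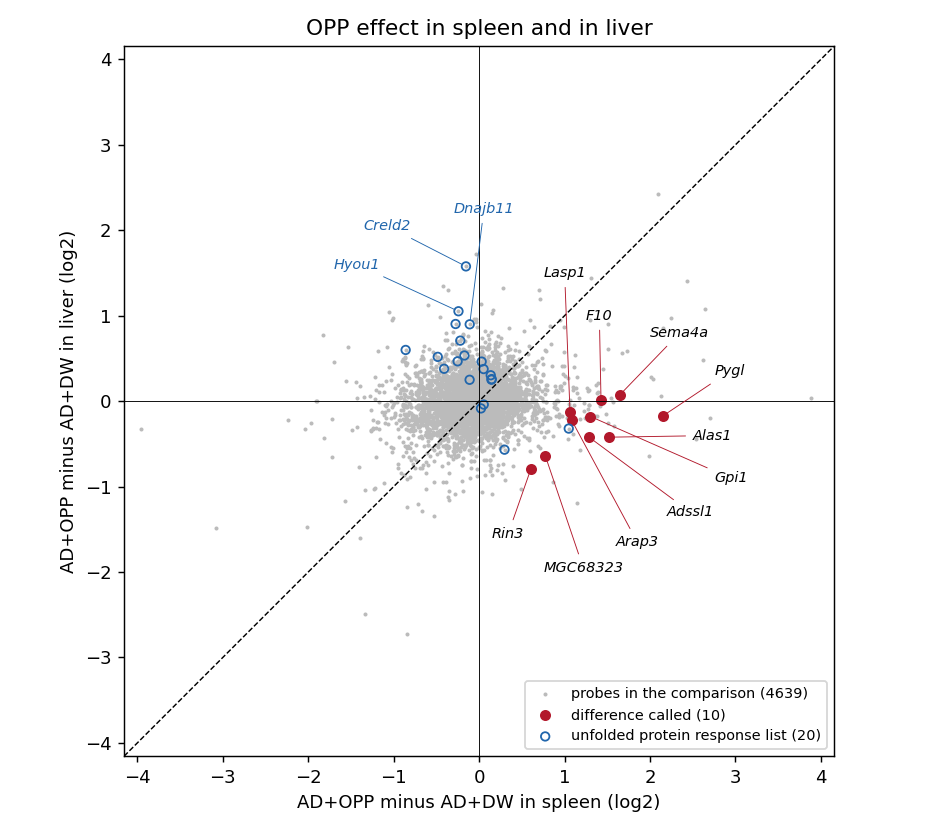
OPP effect (AD + OPP minus AD + DW, log2) in spleen on the horizontal axis and in liver on the vertical axis for 4639 probes, with equal effects on the dashed line. The 10 called probes, in red, have spleen effects of 0.60 to 2.15 and liver effects of −0.80 to 0.07, while the unfolded protein response genes, circled, lie mostly above the dashed line.

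Enzymes of sugar metabolism were among the 10. Pygl, the liver form of glycogen phosphorylase, which releases glucose units from glycogen, gave normalized signals of 578, 980.4 and 818 in AD + OPP spleens and 136, 308 and 125 in AD + DW spleens, where 1 of the 3 arrays did not detect it. In liver it gave 1509, 1626 and 1946 in AD + OPP and 1792, 1809, 2116 and 1881 in AD + DW. The spleen groups were apart and the liver groups overlapped, and the difference was 2.33 ± 0.40 (SE, limma adjusted p = 0.0411).

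Gpi1, glucose-6-phosphate isomerase of glycolysis, had signals of 2663, 2300.5 and 2303 in AD + OPP spleens and 750.0, 1287 and 975 in AD + DW spleens. Its liver signals were 939.7, 1104 and 917 in AD + OPP and 1196, 1076, 938 and 1278 in AD + DW. Spleens with OPP thus held 2.47 times the level of those without, livers with OPP 0.882 times, and the difference was 1.48 ± 0.26 (adjusted p = 0.0411). Adssl1, an adenylosuccinate synthetase of purine nucleotide metabolism, read 960.0, 986 and 852 in AD + OPP spleens against 271, 549 and 375 in AD + DW spleens. In liver every AD + OPP array lay below every AD + DW array, with 463, 419 and 559 against 724, 576, 621 and 641, and the difference was 1.71 ± 0.30 (adjusted p = 0.0411).

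Alas1, an enzyme of the first step of heme synthesis, had effects of opposite sign in the organs. Its signals were 6527, 5784 and 5360.4 in AD + OPP spleens and 1695, 2840.0 and 1792 in AD + DW spleens. In liver, where heme is made largely for cytochromes, they were 27144, 25079 and 22194 in AD + OPP and 40753, 28996, 31392 and 32485 in AD + DW. Neither organ's groups overlapped, and the spleen effect of 1.52 ± 0.20 and the liver effect of −0.42 ± 0.19 differed by 1.94 ± 0.27 (adjusted p = 0.0211). The liver effect of Alas1 alone did not pass the test (adjusted p = 0.569). The red cell and heme synthesis list, which does not hold Alas1, went the other way in spleen. All 15 of its measured genes were lower in AD + OPP spleens on group means, with a median of −0.37, and 0 passed the test there. Its median difference between the organs was −0.14, beside −0.08 for all probes.

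F10, which encodes coagulation factor X, had the smallest p. It read 297, 254 and 285 in AD + OPP spleens and 87.5, 119.6 and 106 in AD + DW spleens, where 1 of the 3 arrays did not detect it. The livers, where the plasma factor is made, held 5997, 7136 and 5800.3 in AD + OPP and 6174, 6093, 6376 and 6371 in AD + DW. The spleen rose 2.69-fold, the liver effect was 0.01 ± 0.14, and the difference was 1.42 ± 0.20 (adjusted p = 0.0211).

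Sema4a, a semaphorin on immune cells that costimulates T cells, read 908, 861 and 910.1 in AD + OPP spleens against 287, 379 and 214 in AD + DW spleens. Its liver values were 1243, 1375 and 1273 in AD + OPP and 1172, 1087, 1393 and 1296 in AD + DW, which overlapped. The difference was 1.57 ± 0.25 (adjusted p = 0.0302).

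The other 4 genes have unlike roles. Rin3, a regulator of the endocytic GTPase Rab5, was higher in AD + OPP spleens (984, 1130.4 and 912 against 797, 601 and 605 in AD + DW) and lower in AD + OPP livers (209.9, 231 and 172 against 377, 357, 350.1 and 332 in AD + DW). Both organs' groups were apart, and the difference was 1.40 ± 0.22 (adjusted p = 0.0302), although the effect passed in neither organ alone. MGC68323, annotated in the study's supplement as similar to the glycolytic enzyme glyceraldehyde phosphate dehydrogenase, may share signal with Gapdh and is uncertain for that reason. It also had effects of opposite sign, of which the spleen effect passed the test (adjusted p = 0.0297), with 428, 472 and 432 in AD + OPP spleens and 204, 276 and 309 in AD + DW spleens. Its livers gave 577, 551 and 577 in AD + OPP and 971, 997, 813 and 797 in AD + DW, and its difference was 1.42 ± 0.22 (adjusted p = 0.0302).

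Lasp1, an actin-binding adaptor, read 702, 732 and 759.5 in AD + OPP spleens and 351, 394 and 309 in AD + DW spleens. Arap3, an activator of GTP hydrolysis by Arf proteins, read 705, 633 and 646 against 301, 390.4 and 259. In liver both genes' groups overlapped, and their differences were 1.20 ± 0.20 and 1.30 ± 0.23 (adjusted p = 0.0411 for each).

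**Figure D3:**
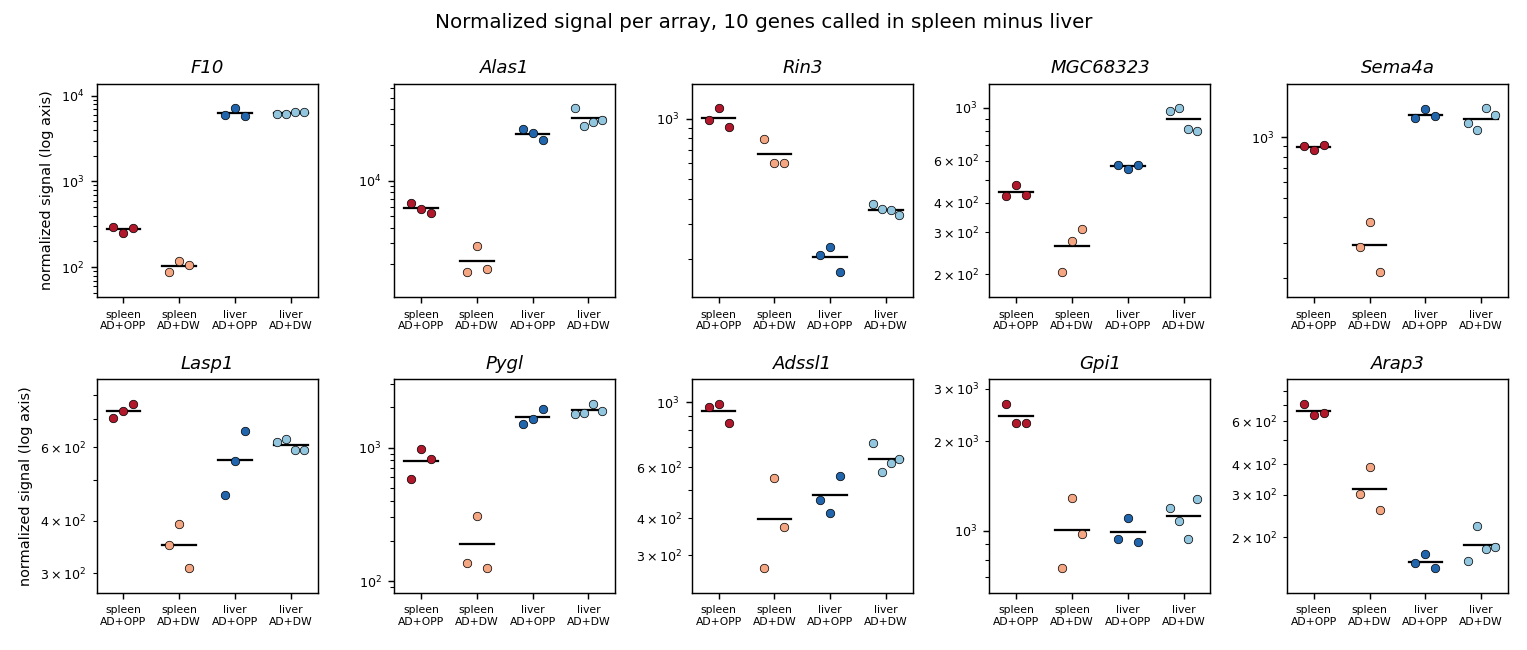
Normalized signal (log axis) of the 10 called genes on each array, with a line at each group mean. In spleen every AD + OPP point lies above every AD + DW point for all 10 genes, and in liver every AD + OPP point lies below every AD + DW point for Alas1, Rin3, MGC68323 and Adssl1.

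In all 10 genes the spleen groups did not overlap, which held for 9.48% of all probes in that direction, and in 4 the liver groups did not overlap with AD + OPP lower, against 4.4% of all probes. The choice of the 10 by p in this comparison favours such separation, so these counts only describe them. Within spleen 9 of the 10 passed the test and within liver 0. The AD + DW spleen nearest to the AD + OPP spleens was replicate 2 in 8 of the 10. Without the 4 arrays high in acinar markers all 10 differences stayed positive, from 0.95 for Arap3 to 1.65 for Pygl, but 0 probes were called. The difference of F10 was 0.77 with quantile normalization within each organ and 0.67 with scaling to the median, and that of Arap3 was 0.86 with scaling to the median. The call of 10 also ended when any 1 of the AD + OPP spleens, of AD + OPP liver replicates 1 and 2, or of the 4 AD + DW livers was left out. It was 4 without AD + DW spleen replicate 1 or 3 and 50 without replicate 2, of which 10 lay lower.

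Next below the threshold on the higher side stood Tkt, transketolase of the pentose phosphate pathway, which makes NADPH. It read 8571, 7271 and 6929 in AD + OPP spleens against 3939, 4357 and 3754 in AD + DW spleens, and 2625, 2832 and 2639 in AD + OPP livers against 2504, 3211, 2968 and 2910.2 in AD + DW livers. Its difference of 1.01 ± 0.19 had an adjusted p of 0.0635, so it was not called. P2ry1, an ADP receptor of platelets and other cells, differed by 1.52 ± 0.30 (adjusted p = 0.0827), mostly through the liver. There it read 152, 157 and 208 in AD + OPP and 418, 273, 395 and 326 in AD + DW. Gpc1, a cell-surface heparan sulfate proteoglycan, had a spleen effect of 1.15 ± 0.34, a liver effect of −1.19 ± 0.32 and a difference of 2.33 ± 0.47 (adjusted p = 0.0827).

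On the lower side no probe was called, and the 12 genes of smallest p had adjusted p values of 0.123 to 0.148. In 10 of the 12 the effect lay in spleen only, and in 11 the spleen groups did not overlap with AD + OPP lower, against 11.5% of all probes. Separation is favoured by the choice of these genes by p and is only a description. In all 12 the AD + DW spleen with the lowest value was replicate 2. Igf1, the growth hormone-dependent growth factor, was not well above background on any AD + OPP spleen (28.6, 46.3 and 48.4) and read 119, 104 and 274 in AD + DW spleens. It was at least 2.59-fold lower in AD + OPP, with each AD + OPP array set to its lowest signal of a detected probe. In liver, its main source, it was level, at 5090.0, 4812 and 4587 in AD + OPP and 4494, 4942, 5093 and 4714 in AD + DW. The fitted difference of Igf1 was −1.92 ± 0.41 (limma adjusted p = 0.13). It rests on AD + OPP spleen readings without detection, so it has no exact size.

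Other genes among the 12 had unlike roles. Cadm1, an immunoglobulin-type adhesion molecule, read 126, 171 and 144 in AD + OPP spleens against 381, 286 and 391 in AD + DW spleens, with a difference of −1.16 ± 0.26. Tnxb, the matrix protein tenascin XB, read 107, 115 and 103 against 284, 201 and 255, with a difference of −1.16 ± 0.26. Liver effects of these genes were −0.10 ± 0.18 and −0.01 ± 0.18. Pde4dip, an anchor of a cyclic AMP phosphodiesterase, differed by −1.09 ± 0.23 and Slc12a2, a sodium, potassium and chloride cotransporter, by −1.33 ± 0.31. Anxa6, a calcium-dependent membrane-binding protein, read 434, 524 and 441 in AD + OPP spleens against 977, 739 and 1025 in AD + DW spleens and differed by −1.01 ± 0.25. Nr1h3, the oxysterol receptor LXR alpha, read 144, 150.5 and 163 in AD + OPP spleens and 252, 250.2 and 287 in AD + DW spleens. Its liver values overlapped, at 800.2, 618 and 839 in AD + OPP and 689.5, 745, 821 and 687 in AD + DW, and the difference was −0.81 ± 0.20 (adjusted p = 0.148).

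In Zfp36l1, an RNA-binding protein that speeds mRNA decay, the organs leaned opposite ways. It read 102, 144 and 121 in AD + OPP spleens against 253, 188 and 242 in AD + DW spleens, and 546, 359 and 286 in AD + OPP livers against 218, 335, 252 and 299 in AD + DW livers, with a difference of −1.38 ± 0.33 (adjusted p = 0.144). A second probe of the gene gave −0.97, with a liver effect of 0.05. Cbr1, a carbonyl reductase, read 104, 109.5 and 91.2 in AD + OPP spleens and 158, 177 and 332 in AD + DW spleens. In liver it read 2436, 2841 and 876 in AD + OPP and 691, 905, 739 and 1321 in AD + DW, so AD + OPP replicate 3 fell among the AD + DW livers, and the difference was −2.10 ± 0.55 (adjusted p = 0.177).

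Genes of the unfolded protein response had higher signals mostly in the AD + OPP livers, though none passed the test. Of its 42 listed genes, 20 were measured in both organs, 16 of them with a lower and 4 with a higher OPP effect in spleen than in liver, and 0 were called. The median difference was −0.57, beside −0.08 for all probes, from a median effect of −0.11 in spleen and 0.42 in liver. In liver 10 of the 20 had a higher signal on every AD + OPP array than on every AD + DW array, against 4.44% of all probes, and in spleen 0 had. Without the 4 arrays high in acinar markers 17 of the 20 were lower, with a median of −0.19, and without AD + DW spleen replicate 3 alone the median was −0.31. With each array's mean acinar signal added to the fit as a covariate, 16 of the 20 were lower, with a median of −0.57.

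Dnajb11, an ER co-chaperone, had the smallest p of these genes. It read 796, 901 and 758 in AD + OPP spleens against 815, 814 and 1032 in AD + DW spleens, and 1285, 1756 and 2043 in AD + OPP livers against 883, 959, 816 and 918 in AD + DW livers. The groups overlapped in spleen and were apart in liver, and the difference was −1.01 ± 0.24 (adjusted p = 0.144). Creld2, a secreted ER stress protein, read 395, 550.1 and 527 in AD + OPP spleens and 462, 481 and 711 in AD + DW spleens. Its livers gave 874, 790.5 and 2211 in AD + OPP and 473, 486, 276 and 351 in AD + DW, a 2.98-fold effect, and the difference was −1.73 ± 0.48 (adjusted p = 0.201).

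Eif2ak3, the ER stress kinase PERK that slows translation, read 334, 237 and 246 in AD + OPP livers against 196, 190.4, 159.8 and 209 in AD + DW livers, and 242, 162 and 220.4 in AD + OPP spleens against 296, 239 and 335 in AD + DW spleens. Its effects of −0.48 ± 0.20 in spleen and 0.52 ± 0.19 in liver differed with an adjusted p of 0.185. Ppp1r15b, a phosphatase subunit that reverses the action of that kinase on translation, ran the other way, with 200.3, 236 and 311 in AD + OPP livers against 380.2, 367, 356 and 353 in AD + DW livers. Its spleen values overlapped and its difference was 0.87 ± 0.25 (adjusted p = 0.224), while a second probe gave 0.21.

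Hyou1, Syvn1 and Hspa5 were chosen after their values were seen. Hyou1, an ER chaperone of the Hsp70 family, gave 206, 215 and 301 in AD + OPP livers and 153, 101, 89.6 and 124 in AD + DW livers. Syvn1, a ubiquitin ligase that clears misfolded ER proteins, gave 3386, 4378 and 9082 in AD + OPP livers and 2589, 3282, 2326 and 2861 in AD + DW livers. Liver groups were apart for both, and the differences were −1.29 ± 0.47 and −1.18 ± 0.40 (adjusted p = 0.346 and 0.312). Hspa5, the main ER chaperone BiP, read 4909, 3177 and 4641 in AD + OPP livers and 3272, 3187, 2246 and 2934 in AD + DW livers, where AD + OPP replicate 2 overlapped, and its difference was −0.71 ± 0.35 (adjusted p = 0.496). Of the other members, Hsp90b1, the ER form of Hsp90, differed by −0.43 ± 0.25 and Vcp, an ATPase that extracts misfolded proteins, by −0.17 ± 0.17. Herpud1, a membrane protein of ER-associated degradation, differed by −1.46 ± 0.90 and by 0.55 without the 4 arrays high in acinar markers.

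**Figure D4:**
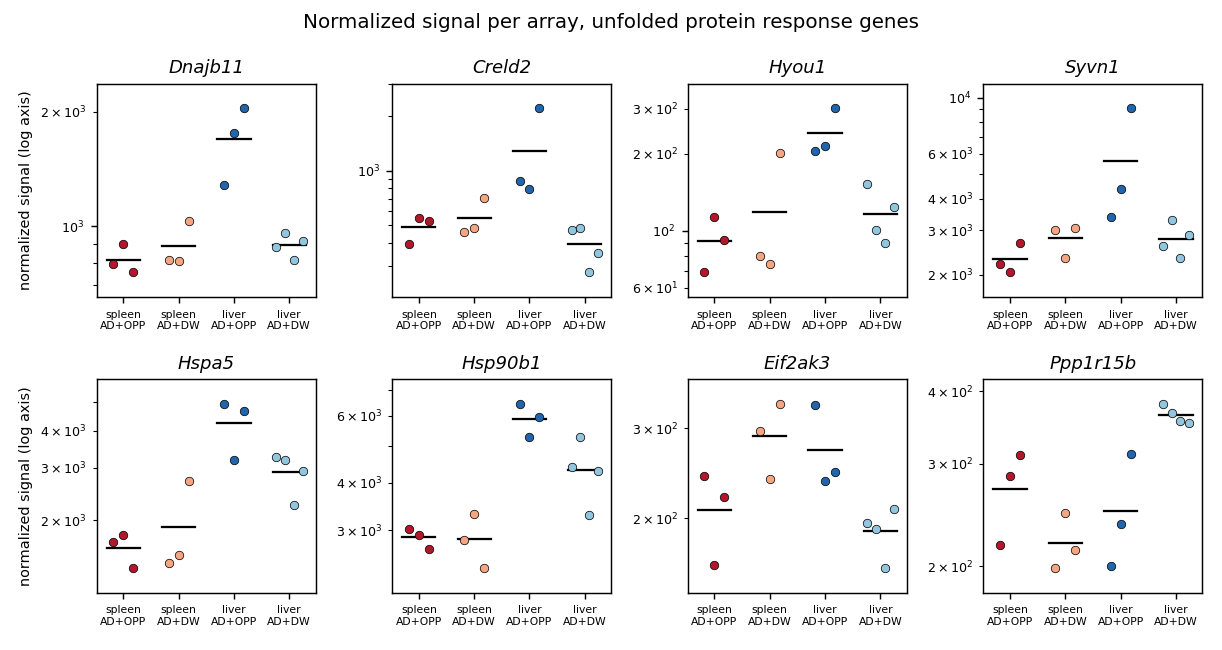
Normalized signal (log axis) of 8 unfolded protein response genes on each array, with a line at each group mean. The AD + OPP livers lie above the AD + DW livers without overlap for Dnajb11, Creld2, Hyou1, Syvn1 and Eif2ak3 and below them for Ppp1r15b, while no spleen groups separate in these 6 genes.

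Many promoters of this response carry the ER stress response element, which NF-Y binds at one end and the ATF6 and XBP1 factors at the other. Its letters, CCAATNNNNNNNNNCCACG, were searched on both strands of the 250 bases before the start site in the RefSeq promoters (GRCm38.p6). They occurred in 35 of 27025 genes (0.13%) and in 6 of the 3148 compared genes that had a promoter there (0.191%). Of the 17 measured genes of the list that had a promoter there, 4 held them. The list was chosen as genes of this response, so its share is no test. The elements of these 4 genes are shown, since they are the measured genes of the list that hold it, although none of the 4 was called. Each is printed with 10 flanking bases and both ends of the element in capitals.
Creld2, chr15:88819510-88819548, minus strand: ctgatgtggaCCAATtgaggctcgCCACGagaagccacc
Hspa5, chr2:34772015-34772053, plus strand: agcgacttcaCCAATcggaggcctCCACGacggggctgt
Syvn1, chr19:6046522-6046560, plus strand: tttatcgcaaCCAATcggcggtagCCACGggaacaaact
Hsp90b1, chr10:86705628-86705666, minus strand: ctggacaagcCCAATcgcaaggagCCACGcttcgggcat
Hsp90b1 also holds a further element on the other strand, chr10:86705523-86705561. The elements lay 26 to 126 bases before the start in Creld2, Hspa5 and Syvn1 and up to 212 bases before it in Hsp90b1. A match of letters describes the sequence only.

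Other genes had a larger effect in liver than in spleen, again without a call. The spleen groups of Csad, Trim56 and Dis3l were also apart, as for 21% of all probes. Csad, an enzyme of taurine synthesis, which the liver uses to conjugate bile acids, read 4921, 6197 and 2184 in AD + OPP livers against 1623, 2523, 1191 and 2472 in AD + DW livers, which overlapped. In spleen it read 101, 90.9 and 109 in AD + OPP against 142, 153 and 159.5 in AD + DW. Its difference was −1.72 ± 0.48 (adjusted p = 0.201). Trim56, a ubiquitin ligase of antiviral signalling, read 181, 145 and 132 in AD + OPP livers and 91.9, 108, 76.4 and 127 in AD + DW livers. In spleen it read 294, 308 and 269 in AD + OPP against 434, 323 and 374 in AD + DW. Its difference was −0.98 ± 0.27 (adjusted p = 0.199). In the other direction, Cenpa, the centromeric histone H3 variant, read 125, 137 and 102 in AD + OPP livers and 209, 200.2, 266 and 207 in AD + DW livers. In spleen, where cells divide, it was at 3498, 3152 and 3212 in AD + OPP and 2409, 3635 and 3482 in AD + DW, and the difference was 0.93 ± 0.25 (adjusted p = 0.185). Dis3l, a subunit of the cytoplasmic RNA exosome, read 164, 168 and 264 in AD + OPP livers against 338, 333, 333 and 309.6 in AD + DW livers. In spleen it read 371.5, 244 and 267 in AD + OPP against 237, 242 and 185 in AD + DW. Its difference was 1.15 ± 0.28 (adjusted p = 0.148).

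Glycolysis showed the highest median of any list with at least 4 measured genes. Of its 14 measured genes, 11 had a higher spleen than liver effect, 1 was called (Gpi1, against 0.216% of all probes) and the median difference was 0.79, from 0.76 in spleen and 0.03 in liver. The megakaryocyte and platelet list, with only 3 measured genes, had a higher median of 0.96. All 3 had a higher spleen effect and 1 was called (F10), while Selp and Vwf were not (limma adjusted p = 0.57 and 0.595). F10 is also in the complement and coagulation list. There it was the only 1 of 7 measured genes with a higher spleen effect, 6 were lower, and the median was −0.47. Without the 4 arrays high in acinar markers the median was 0.99 for the megakaryocyte and platelet list and −0.06 for the complement and coagulation list. Gapdh, the glyceraldehyde phosphate dehydrogenase, read 8839.8, 8252 and 8353 in AD + OPP spleens against 3652, 5818 and 4026 in AD + DW spleens, and 14497, 11805 and 11945 in AD + OPP livers against 9706, 13304, 11275 and 10944 in AD + DW livers. Its spleen effect of 0.94 ± 0.18 passed within spleen (adjusted p = 0.0238) and its difference of 0.77 ± 0.25 did not (adjusted p = 0.302). Other probes of Gapdh gave differences of 0.51 and 0.92. Tpi1, triose phosphate isomerase, differed by 0.71 ± 0.25, and Aldoa, an aldolase chosen after its values were seen, by 1.16 ± 0.43. Pfkfb3, which makes the activator of phosphofructokinase, got its difference of 1.02 ± 0.36 mostly from liver, with 1664, 816 and 1915 in AD + OPP and 2550.4, 2786, 1939 and 2014 in AD + DW. A second probe of Pfkfb3 gave 0.79. Without the 4 arrays high in acinar markers the median of the glycolysis list was 0.35, with 11 of 14 still higher. With the acinar covariate it was 0.75, with 11 of 14 higher.

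Enzymes that supply NADPH and use glutathione were mixed. Of 10 pentose phosphate and NADPH genes, 8 had a higher spleen effect, with a median difference of 0.24. Pgd, which makes NADPH from phosphogluconate, read 5807, 4404 and 4622 in AD + OPP spleens and 1342, 2219 and 1615 in AD + DW spleens, and differed by 1.50 ± 0.41 (adjusted p = 0.195). Of 30 glutathione and NRF2 target genes, 14 had a higher and 16 a lower spleen effect, with a median of −0.06. Among the higher, Gsr, glutathione reductase, read 1904, 1764 and 1705 in AD + OPP spleens and 526, 931 and 675 in AD + DW spleens, with a difference of 1.19 ± 0.25 (adjusted p = 0.123). Mgst1, a microsomal glutathione transferase, differed by 1.22 ± 0.36, and Gstm1, a cytosolic one, by 1.49 ± 0.48 (adjusted p = 0.224 and 0.3).

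Genes of MHC class II, which present antigen to helper T cells, lay on the other side. All 8 measured MHC class II genes had a lower OPP effect in spleen than in liver, with a median difference of −0.82 and 0 called, and the median effects were −1.19 in spleen and −0.26 in liver. H2-Eb1, the beta chain of the I-E molecule, read 1523, 2584 and 1792 in AD + OPP spleens against 4611, 3878 and 5228 in AD + DW spleens. Its livers gave 237, 171 and 233 in AD + OPP and 245, 199, 294 and 327 in AD + DW, and the difference was −0.93 ± 0.32 (adjusted p = 0.32). Cd74, the invariant chain, read 1616, 3481 and 2177 in AD + OPP spleens against 6024, 4387 and 6088 in AD + DW spleens and differed by −0.91 ± 0.42. H2-Ab1, the beta chain of I-A, was lower in both organs, by −1.21 ± 0.32 in spleen and −0.65 ± 0.30 in liver, neither of which passed the test. A second probe of H2-Ab1 gave −1.82 in spleen and −0.43 in liver, a difference of −1.39 (limma adjusted p = 0.641). The spleen B-cell markers were lower beside these genes (6.17 to 6.82 in AD + OPP and 7.17 to 7.63 in AD + DW). Without the 4 arrays high in acinar markers the median difference of the list was −0.29, with 8 of 8 still lower. Without AD + OPP spleen replicate 1 alone it was −0.50. Other presentation genes were less one-sided, with 3 higher and 11 lower of 14 genes of MHC class I and the immunoproteasome (median −0.26) and 2 higher and 2 lower of 4 genes of dendritic cells and antigen presentation (median −0.12).

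All 14 measured macrophage genes also had a lower spleen effect, with a median of −0.47 and 0 called. Slc40a1, the iron exporter ferroportin, read 3754, 4209 and 3407 in AD + OPP spleens and 6965, 5252 and 6514 in AD + DW spleens, and differed by −0.64 ± 0.28 (adjusted p = 0.448). Without the 4 arrays high in acinar markers, 6 of the 14 lay higher and the median was −0.03. With 1 array left out it ran from −1.15, without AD + OPP liver replicate 3, to −0.14, without AD + OPP liver replicate 2. With the acinar covariate 0 of the 14 lay higher and the median was −0.47. Il18, a cytokine of macrophages, read 187, 239 and 222 in AD + OPP spleens and 426, 312 and 458 in AD + DW spleens, and differed by −0.61 ± 0.25 (adjusted p = 0.405). Of 64 cytosolic ribosomal proteins, 59 had a lower spleen effect, by a small median of −0.30. Without the 4 arrays high in acinar markers 54 of 64 were lower, with a median of −0.18, and without AD + DW spleen replicate 3 alone the median was −0.13. The fit with the acinar covariate gave 59 of 64 lower and a median of −0.28.

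Of 27 genes of the actin cytoskeleton, 19 had a higher spleen effect, with a median of 0.21 and 0 called. Zyx, the focal adhesion protein zyxin, read 5726, 5734 and 5620.1 in AD + OPP spleens against 3134, 3271 and 2913 in AD + DW spleens and differed by 0.90 ± 0.26 (adjusted p = 0.224). Respiratory chain subunits differed little, with medians of 0.14 for 28 subunits of complex I and 0.14 for 34 of complexes II to V. Ndufv3, of complex I, was higher in AD + OPP spleens (1949, 1639 and 1826 against 920.5, 1406 and 932 in AD + DW) and differed by 0.90 ± 0.23 (adjusted p = 0.173). Copg1, part of the COPI coat of transport vesicles, was higher in AD + OPP livers (261, 248 and 252 against 166, 176, 154 and 162 in AD + DW) and differed by −0.58 ± 0.21. The 33 genes of ER translocation and vesicle coats to which it belongs had a median of −0.17, with 26 lower. The 30 proteasome genes had a median of −0.01.

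**Figure D5:**
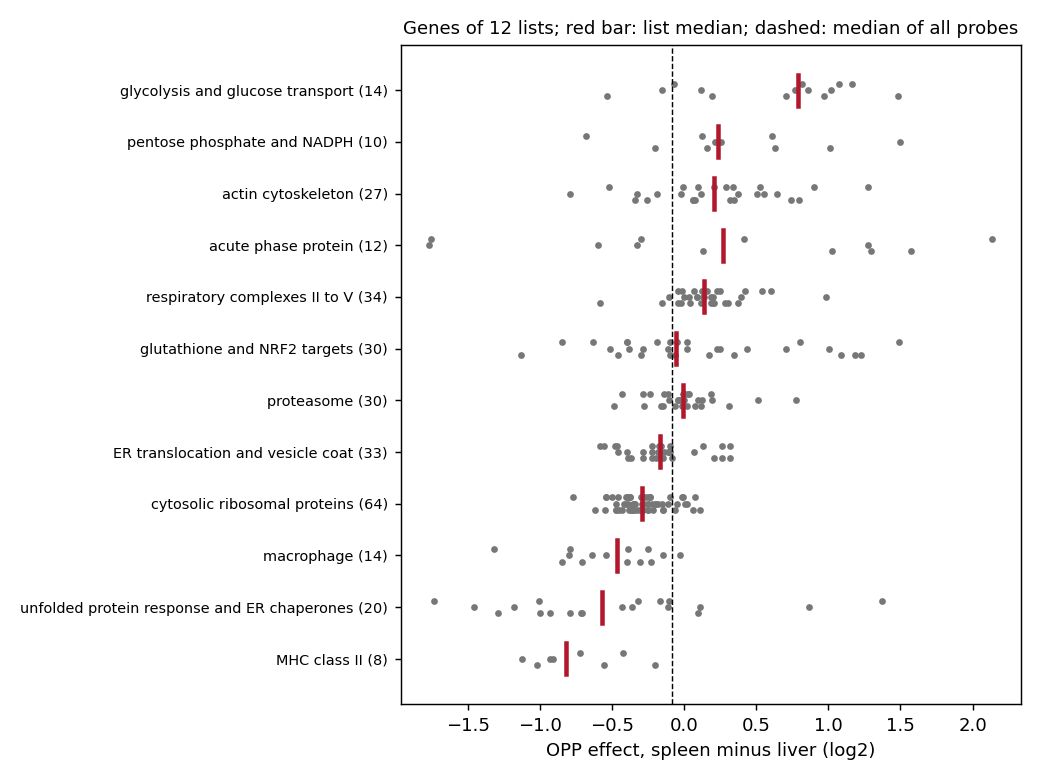
OPP effect in spleen minus that in liver (log2) for each measured gene of 12 lists, with the number of genes in brackets, the list median as a red bar and the median of all probes as a dashed line. Glycolysis lies highest (median 0.79) and MHC class II lowest (median −0.82).

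Acute phase genes leaned upward in both organs. Of 12 measured, 2 passed the test within spleen, both higher, against 1.44% of all probes, and 0 within liver, where 0 of all probes passed. Of the 12, 10 were higher in AD + OPP spleens and 12 in AD + OPP livers on group means. The spleen groups were apart with AD + OPP higher in 7, against 9.48% of all probes. The liver groups were apart in that direction in 0, against 4.44%. The median difference was 0.27. With 1 array left out this median ran from −0.16 to 0.76, and it was below 0 without AD + OPP spleen replicate 3, AD + OPP liver replicate 3 or AD + DW liver replicate 4. Hp, haptoglobin, read 7494, 5669 and 6403 in AD + OPP spleens and 688, 2535 and 670.5 in AD + DW spleens, a change that passed within spleen (2.62 ± 0.51, adjusted p = 0.0238). In liver it read 90716, 88759 and 38016 in AD + OPP and 32769.8, 35556, 54270.2 and 85384 in AD + DW, and the difference was 2.14 ± 0.69 (adjusted p = 0.301), against 0.35 for a second probe. Lrg1, a secreted glycoprotein of liver and neutrophils, had effects of 2.15 ± 0.36 in spleen and 0.86 ± 0.34 in liver. Cebpb, a transcription factor of the acute phase and of myeloid cells, read 1317, 1110.3 and 1250.4 in AD + OPP spleens and 391, 497 and 643 in AD + DW spleens, and differed by 1.34 ± 0.41 (adjusted p = 0.263).

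The spread within liver set a limit on such genes. S100a8 and S100a9, calprotectin subunits that neutrophils carry in bulk, were chosen after their values were seen. S100a8 gave 36702, 37493 and 42068 in AD + OPP spleens and 19132, 35265 and 22623 in AD + DW spleens. In AD + OPP livers it gave 13737, 15159 and 54.9 and in AD + DW livers 228, 162, 3552 and 17855. With standard errors of 2.71 for S100a8 and 2.26 for S100a9, a difference of these genes between the organs was not detectable with these arrays.

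Most immune genes could not be compared between the organs at all. Of 32 B-cell genes, 25 had a probe and 1 was measured in both organs, and of 31 T-cell and NK-cell genes and 10 genes of neutrophil primary granules none was. Some single genes of other roles are given without a call. Egln3, a prolyl hydroxylase of the hypoxia response, read 264, 199 and 184 in AD + OPP spleens and 16.8, 89.8 and 32.4 in AD + DW spleens, of which 1 was detected, so that its difference has no exact size (adjusted p = 0.148). Dgat2, which makes triglyceride, read 482, 320.5 and 496 in AD + OPP spleens against 101, 156 and 292 in AD + DW spleens and differed by 1.54 ± 0.43 (adjusted p = 0.206). Cfb, complement factor B, read 739, 547 and 741 in AD + OPP spleens and 1098, 1108 and 1287 in AD + DW spleens, and differed by −0.91 ± 0.27 (adjusted p = 0.254). Serpina1b, an alpha-1-antitrypsin gene, read 445, 434 and 501 in AD + OPP spleens and 721, 704 and 771 in AD + DW spleens, and differed by −0.82 ± 0.19 (adjusted p = 0.141). It belongs to a family of near-identical genes, so its probe may also read other members.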

How the data were processed

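Total RNA of each organ was hybridized to Illumina MouseRef-8 version 1 BeadChips. Per the submitters' processing notes the authors used BeadStudio 1.5.1.3 and, per the paper, the rank invariant method and a removal of outlier arrays by clustering. Intensity values, deposited by the authors without a log transform, had the background removed, and the deposited p-value is Illumina's detection p. Normalization was made within each organ, so levels were not compared between organs. Between that table and the series matrix 0 cells differed.

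Signals were floored at 10 and log2 transformed. The 13 arrays were fitted in R 4.3.3 with limma 3.58.1 (statmod 1.5.0), with 1 mean per group and a moderated two-sided test of the difference of differences. P-values were adjusted over 4639 probes by Benjamini-Hochberg, with a threshold of 0.05. The pattern "spleen only", "liver only" or "opposite" uses unadjusted p under 0.05 in each organ. Standard errors are limma's, with 3 arrays per group (4 for AD + DW livers). The fit was tested on simulated data.

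Of 24048 probes, 19398 carried a symbol in the platform annotation, 338 were named through the study's supplementary tables and 4312 had no name. Gene lists (43) used the brightest probe per gene. Named genes were the 12 of smallest p in each direction, 6 of each liver-only or opposite kind (mean signal of at least 100 in the brightest group), up to 3 per list and genes the study named. Of these, those that carry a comparison are printed. The members and lists were chosen with earlier results of these data known.

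Labels do not say whether RNA was pooled, and p-values measure the spread between these arrays. The labels do not link a spleen to the liver of the same mouse. Arrays of the spleen and the liver may thus share mice, and the main fit treated all arrays as unpaired. The study's own array test, Illumina's custom error model, was not run, and the t-test among the alternatives is the study's default for other measurements. Alternatives were other normalizations, floors, filters, variance models, a fit with the heart arrays, replicate blocks and each array left out. The number of arrays limits the precision.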

Additional observations from a re-analysis of the deposited data

Results flagged for a closer look

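The difference between the organs passed the test for 10 genes, in each of which the OPP effect in spleen exceeded that in liver. The differences, on the log2 scale, were 1.42 for F10, 1.94 for Alas1, 1.40 for Rin3, 1.42 for MGC68323, 1.57 for Sema4a, 1.20 for Lasp1, 2.33 for Pygl, 1.71 for Adssl1, 1.48 for Gpi1 and 1.30 for Arap3. Of these, 3 had opposite effects at an unadjusted p under 0.05 in each organ: Alas1, Rin3 and MGC68323.

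Among the 4 AD + DW livers, Cenpa had 1 value far from the others, at 266 on replicate 3 against 200.2 to 209, a gap of 0.846 of the group's range. The AD + DW livers of every gene named in the text were searched in this way, and only Cenpa was marked. About 1 in 20 groups is marked by chance, so 1 mark is no sign of an unusual value.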

How the results depend on the processing

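The count of 10 differences called was within 1.5 times under quantile normalization within each organ, floors of 1 and 50, a filter for detection on every array, a trended robust variance, array weights, ordinary least squares and the series matrix. It was 5 with neqc per organ, 20 with scaling to the median, 25 with no detection filter (22 higher and 3 lower) and 33 in the fit over 19 arrays (26 higher and 7 lower). Between AD + OPP and AD + DW arrays, which are different mice, same-number correlations of deviations were 0.02 to 0.19 in spleen and −0.43 to −0.04 in liver. Between spleen and liver arrays of the same number they were −0.10 to −0.01 in AD + OPP and −0.16 to 0.10 in AD + DW. For other numbers they were −0.11 to 0.17 and −0.08 to 0.13. Whether equal numbers mean the same mouse is not known. With the replicate number as a fixed block 0 differences were called and with it as a random block 5. Leaving out 1 array gave 0 to 50, with 0 to 40 higher and 0 to 10 lower. The 50 came without spleen AD + DW replicate 2. Without spleen AD + DW replicate 1 or 3 it was 4 each, and without liver AD + OPP replicate 3 it stayed within that factor, with 3 of the calls lower. The following were chosen after seeing the data: without the 4 arrays high in acinar markers 0 were called, and with the acinar level as a covariate 3, all higher.

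Within spleen the 94 became 180 with quantile normalization, 173 with scaling to the median, 34 with ordinary least squares, 154 over 19 arrays, 47 with the replicate block, 0 without the acinar-high arrays, 28 with the acinar covariate and 0 in a separate fit of the organ. An unpaired t-test gave 548 at an unadjusted threshold and 1 after Benjamini-Hochberg, and leaving out 1 array gave 13 to 198. Within liver the 0 became 7 with no filter, 3 over 19 arrays, 377 by the unpaired t-test unadjusted, and 0 to 3 with 1 array left out. Signs turned in a few genes that were not called: S100a9 was 0.00738 with neqc and 0.0105 with quantile normalization, Vcp 0.0347 with scaling to the median and Herpud1 0.55 without the acinar-high arrays. Leaving out 1 array gave −2.90 to 1.15 for S100a8 and −2.50 to 0.75 for S100a9. With 1 array left out, list medians ran from 0.61 to 0.96 for glycolysis, −0.73 to −0.31 for the unfolded protein response, −1.05 to −0.50 for MHC class II, −1.15 to −0.14 for macrophage genes, −0.42 to −0.13 for ribosomal proteins, 0.14 to 0.41 for the pentose phosphate list, 0.14 to 0.34 for actin and −0.30 to −0.05 for ER translocation. The sign turned for acute phase (−0.16 to 0.76), glutathione (−0.15 to 0.14), complex I (−0.01 to 0.22) and the proteasome (−0.11 to 0.05). All 10 called genes kept their direction in every alternative run. The cause of these changes was not tested.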
